A study of Arabidopsis thaliana with 6 samples.

Results

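Glucosinolates are sulfur-rich defence compounds of Arabidopsis and its relatives, and the array annotation used here pairs 1 probe set with each of 3 genes of their synthesis and transport: GTR2 (AT5G62680), UGT74B1 (AT1G24100) and BCAT4 (AT3G19710). They were chosen by name, with earlier results of these data known, as the probe sets that list only 1 of these genes. They make up 3 of the 22746 probe sets tested. All 3 have a signal on every array, and no filter on low values was applied. RNA was taken from aerial parts at an age of 30 days, from Arabidopsis thaliana of the Col-0 ecotype grown in soil mix at 22 °C with 12 hours of light a day. One group of 3 biological replicates is the wild type and the other, also of 3, is the line that titles and source names call epiF3. The description field of the epiF3 samples speaks of albino plants of an msh1 mutant (MSH1 encodes an organelle-targeted MutS homologue), and the labels do not settle how this relates to epiF3. MSH1 itself is not analysed here, so the labels were not checked by it. The protocol speaks of RNA from each plant, but the labels do not say whether a sample is 1 plant or several.

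Plants build glucosinolates in stages. A methionine or other amino acid may first be lengthened in rounds of side chain elongation, the core structure is then formed from the amino acid through an aldoxime, and the side chain is modified last. The finished compounds are stored in vacuoles, moved between organs through phloem and xylem, and broken down by myrosinases when tissue is damaged. BCAT4 is the aminotransferase that removes the amino group from methionine at the entry to chain elongation. UGT74B1 adds glucose to the thiohydroximate in the core pathway. GTR2, also called NPF2.11, is a proton-coupled importer of the nitrate and peptide transporter family that takes glucosinolates into cells and, together with GTR1, is known for loading them into the phloem.

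Expression of GTR2, the transporter, was higher in epiF3 than in wild type by close to 1 log2 unit. UGT74B1 was higher on each epiF3 array by a smaller amount that did not pass the test over all probe sets, and BCAT4 was not shown to differ. All values are the authors' deposited log2 signals, on which a difference of 1 is a doubling of signal. The groups were compared with limma across all probe sets, with Benjamini-Hochberg adjustment over all of them and a threshold of 0.05. By that rule 0.598% of the probe sets tested differed in either direction and 0.268% were higher in epiF3.

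GTR2 signal was 7.57, 7.75 and 7.87 on wild-type arrays 1 to 3, and 8.53, 8.83 and 8.57 on epiF3 arrays 1 to 3. Every epiF3 array lay above every wild-type array, as for 9.75% of all probe sets, and the lowest epiF3 value exceeded the highest wild-type value by 0.66. The mean rose from 7.73 ± 0.16 in wild type to 8.64 ± 0.16 in epiF3 (SD, n = 3 each). In limma the change was 0.91 (standard error 0.15, 95% confidence interval 0.58 to 1.25), which is 1.88-fold with an interval of 1.49 to 2.38. The unadjusted p was 0.000259 and the adjusted p was 0.0456, just inside the threshold. In size, the change ranked 56th of the 61 probe sets that rose past the threshold.

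Since the groups did not overlap, leaving out a single array could not turn the direction of the GTR2 change, but its call did depend on single arrays. Leaving out wild-type replicate 1, 2 or 3 in turn gave changes of 0.83, 0.92 and 0.98, and leaving out epiF3 replicate 1, 2 or 3 gave 0.97, 0.82 and 0.95. The adjusted p in limma was then 0.119 and 0.161 for wild-type replicates 1 and 2, and 0.101, 0.192 and 0.105 for epiF3 replicates 1 to 3. With wild-type replicate 3 left out it stayed under the threshold, at 0.0394. The unadjusted p was under 0.05 in all 6 of these fits, which have 5 arrays each and share most of them.

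UGT74B1 signal was 8.06, 7.95 and 8.16 on wild-type arrays 1 to 3, and 8.48, 8.59 and 8.34 on epiF3 arrays 1 to 3. The groups did not overlap, but only 0.18 log2 units separated epiF3 replicate 3, the lowest of its group, from wild type replicate 3. The means were 8.06 ± 0.10 in wild type and 8.47 ± 0.13 in epiF3 (SD, n = 3 each). In limma the change was 0.41 (standard error 0.13, interval 0.11 to 0.71), or 1.33-fold with an interval of 1.08 to 1.64. The adjusted p was 0.277, so a change of UGT74B1 was not shown, although the unadjusted p was 0.0139. An unadjusted p under 0.05 was reached by 10.9% of all probe sets, and 9.75% of them had every epiF3 array above every wild-type array.

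BCAT4 signal was 10.25, 10.0 and 10.43 on wild-type arrays 1 to 3, and 10.61, 10.46 and 10.33 on epiF3 arrays 1 to 3. The groups overlapped, since wild type replicate 3 lay above epiF3 replicate 3. The means were 10.23 ± 0.22 in wild type and 10.47 ± 0.14 in epiF3 (SD, n = 3 each). In limma the change was 0.24 (standard error 0.15, adjusted p = 0.626). Its interval of -0.12 to 0.60, or 0.921-fold to 1.51-fold, holds both no change and a rise as large as that fitted for UGT74B1. With 1 array left out the BCAT4 change was 0.12 to 0.34, lowest when wild-type replicate 2 was omitted, and 0.17 when epiF3 replicate 1 was.

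**Figure D1:**
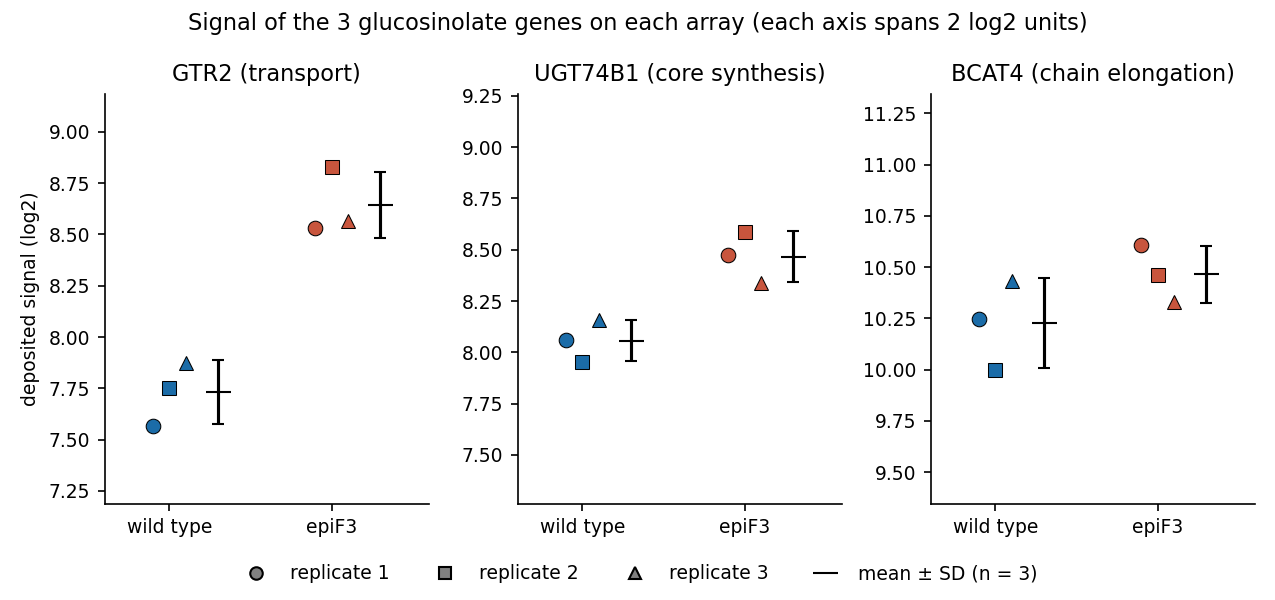
Deposited log2 signal of GTR2, UGT74B1 and BCAT4 (vertical axes, each spanning 2 log2 units) on the wild-type and epiF3 arrays, with 1 point per array and the mean ± SD of 3 arrays beside it. GTR2 points separate by 0.66, UGT74B1 points by 0.18, and BCAT4 points overlap.

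Transport was set against synthesis by taking, on each array, the log2 difference between probe sets, in which any scaling shared by the whole array cancels. Only its change between groups is read, since different probe sets have no common level. GTR2 minus UGT74B1 was -0.50, -0.20 and -0.28 on wild-type arrays 1 to 3 and 0.06, 0.24 and 0.23 on epiF3 arrays 1 to 3. All 3 epiF3 values lay above the wild-type values, and the means differed by 0.50, so that the transporter's fold change was 1.42 times that of the glucosyltransferase. GTR2 minus BCAT4 was -2.68, -2.24 and -2.56 in wild type and -2.07, -1.63 and -1.76 in epiF3, again without overlap, with means 0.67 apart. Both differences hold the same GTR2 values, which separate the groups by themselves, so they are not independent of each other. UGT74B1 minus BCAT4, the difference between both synthesis steps, had means of -2.17 ± 0.12 in wild type and -2.0 ± 0.13 in epiF3 (SD, n = 3 each) and overlapped between groups.

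Of these 3 pairs, both with GTR2 had a two-sided exact permutation p of 0.1, the smallest that 3 arrays against 3 can give, and 0.15 after Benjamini-Hochberg adjustment over the pairs. The exact permutation p was 0.2 for UGT74B1 minus BCAT4, also 0.2 adjusted. This test cannot reach 0.05 with 3 arrays a group, and a larger change of GTR2 than of either synthesis gene was not shown by it. With 1 array left out, the GTR2 minus UGT74B1 change was 0.42 to 0.57 and the GTR2 minus BCAT4 change 0.58 to 0.80.

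**Figure D2:**
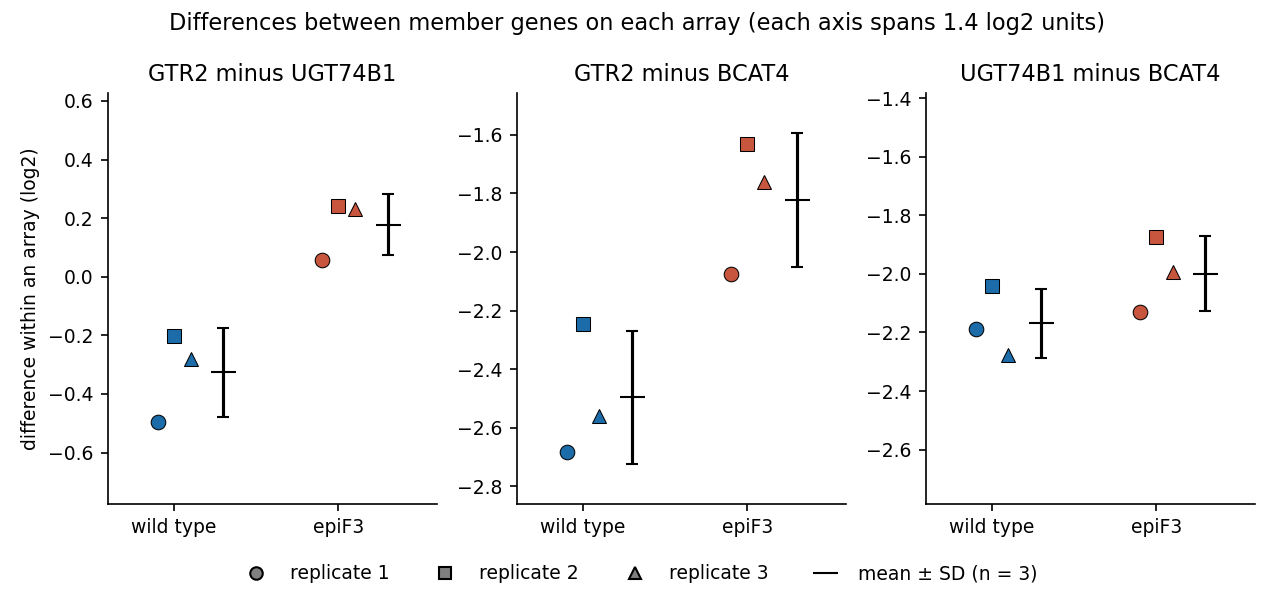
Log2 difference between the signals of 2 member genes on the same array (vertical axes, each spanning 1.4 log2 units), for the 3 pairs, with 1 point per array and the mean ± SD of 3 arrays. Both differences that involve GTR2 share its values and are higher on all 3 epiF3 arrays, and UGT74B1 minus BCAT4 overlaps between groups.

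The wider pathway was covered only in part. Of 73 listed loci of glucosinolate elongation, core synthesis, side chain modification, sulfate supply, regulation, transport and breakdown, 11 have a probe set named in the annotation used here, the 3 members included. GTR2 was the 1 locus of the 11 past the threshold (0.598% of all probe sets were), and 3 had an unadjusted p under 0.05, against 10.9% of all probe sets. Changes were positive for 8 and negative for 3, against 55.7% positive among all probe sets tested. These counts include the 3 members, which were chosen with earlier results known. Of the 8 loci that are no members, 0 passed the threshold and 1 had an unadjusted p under 0.05 in limma. Their changes were positive for 5 and negative for 3, so no excess was shown beyond the members. The median change was 0.24, or 0.12 over the 8 loci that are no members, against 0.03 over all probe sets. No locus of the breakdown list or of sulfate supply was measured under a name.

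GTR1, also called NPF2.10, is the partner of GTR2 in glucosinolate import. Its signal was 8.24, 8.17 and 7.59 on wild-type arrays 1 to 3, and 8.22, 8.71 and 8.22 on epiF3 arrays 1 to 3. The groups overlapped, with wild type replicate 3 lowest and epiF3 replicate 2 highest. In limma the change was 0.38 (standard error 0.22, interval -0.12 to 0.89, adjusted p = 0.587). Without wild type replicate 3 the change of GTR1 was 0.18, its lowest with 1 array left out, while that of GTR2 was 0.98, its highest. Leaving out any other array gave 0.22 to 0.50 for GTR1 and 0.82 to 0.97 for GTR2.

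In core synthesis, AT2G31790 stood beside UGT74B1 in the list from general knowledge of the pathway, since the tables used here give it no name. It was at 8.17, 7.77 and 8.0 in wild type and at 8.54, 8.56 and 8.30 in epiF3. As for UGT74B1, the groups did not overlap and epiF3 replicate 3 was the lowest of its group. Its limma change of 0.49 (standard error 0.15, adjusted p = 0.264) did not pass. GSTU20, a glutathione transferase linked to the aliphatic pathway, was at 9.99 to 10.5 in wild type and 10.1 to 10.2 in epiF3, with a change of -0.03 and an interval of -0.40 to 0.34. That value had no settled sign, since it was 0.04 after median centring.

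In side chain modification, AT2G25450 (listed from general knowledge) had a change of 0.30 with overlapping groups. With 1 array left out it ran from 0.16 without epiF3 replicate 2 to 0.42 without wild-type replicate 1. AOP3, a dioxygenase that makes hydroxyalkyl glucosinolates in some accessions, lay at 2.23 to 2.54 on all 6 arrays, near the floor of the arrays, whose 25th percentiles lie between 2.35 and 2.58. Its change of -0.01 (0.06 after median centring) therefore says little. Among regulators, MYC3 and MYC4 are bHLH factors that act with MYB proteins on glucosinolate genes. MYC3 was at 4.59 to 4.72 in wild type and 4.34 to 4.54 in epiF3, below wild type on all 3 arrays, with a limma change of -0.22 (adjusted p = 0.574). Every epiF3 array lay below every wild-type array for 7.11% of all probe sets. MYC4 had a change of 0.04 with an interval of -0.48 to 0.56, and AT1G04770, listed from general knowledge, one of 0.20 with an interval of -0.94 to 1.33. The width for AT1G04770 goes with wild type replicate 3, at 5.38 against 7.31 and 7.46 on the other wild-type arrays, and without it the change was -0.47.

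GTR2 was also set beside its subfamily. Of 14 listed NPF2 loci 9 were measured, and 2 of them rose past the threshold, GTR2 and AT3G45680, against 0.268% of all probe sets. Without GTR2, for which the subfamily was listed, the count was 1 of 8. The tables used here give no name to AT3G45680 or to the other loci of this list printed without a symbol, which were placed in it from general knowledge. AT3G45680 was at 4.37, 4.88 and 4.78 in wild type and at 6.57, 6.01 and 6.05 in epiF3, without overlap. The limma change was 1.53 (standard error 0.20, adjusted p = 0.0241). That call, like that of GTR2, was kept in 1 of the 6 fits that left out an array, the one without wild type replicate 3, with changes of 1.35 to 1.64 and adjusted p of 0.031 to 0.0964. AT3G45680 lies in a run of similar neighbouring loci, and probe sequences were not used here, so shared hybridization among them was not tested. The measured loci of the same run (AT3G45690, AT3G45700, AT3G45710 and AT3G45720) lay between 1.73 and 3.93, and none of these 4 passed. AT3G45720 and AT3G45700 were near the floor except on epiF3 replicate 3, at 3.21 and 3.93, and without that array the change of AT3G45720 was -0.06 in place of 0.25. The change of 0.54 for AT3G45700 likewise goes with that array, since the other 5 lay at 2.34 to 2.41. AT5G28470 (-0.08, and 0.05 without epiF3 replicate 3) and AT1G69860 (-0.01, and 0.06 after median centring) were near the floor as well. The subfamily's median change was 0.25, or 0.22 without GTR2.

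The UGT74 glucosyltransferases had 4 of 7 listed loci measured. Besides UGT74B1 and AT2G31790 these were UGT74D1, which glucosylates auxin-related compounds, and UGT74F1, which glucosylates salicylic acid. None passed the limma threshold, and 3 of the 4 had an unadjusted p under 0.05, against 10.9% of all probe sets. On all 4 the epiF3 arrays lay above the wild-type arrays, as they did for 9.75% of all probe sets, but for UGT74F1 the gap was 0.0077 log2 units. Without UGT74B1, for which the family was listed, 2 of 3 had an unadjusted p under 0.05 in limma. AT2G31790, which is also in the pathway list, is 1 of these 2. UGT74D1 was at 6.57, 6.24 and 5.93 in wild type and at 6.68, 7.20 and 7.32 in epiF3, a limma change of 0.82 (standard error 0.22, adjusted p = 0.198). UGT74F1 lay between 2.18 and 2.73, near the floor, with a change of 0.22, or 0.0846 without epiF3 replicate 3.

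Of 7 listed branched-chain aminotransferase loci 3 were measured, and none passed the threshold in limma. The other two were ATBCAT-5, with a change of 0.14, and AT1G50110, listed from general knowledge, with 0.68 (adjusted p = 0.261 in limma). For AT1G50110 the groups overlapped, since wild type replicate 1 (4.80) lay just above epiF3 replicate 1 (4.79). All 3 had positive changes, between 0.14 and 0.68, against 55.7% positive among all probe sets, and BCAT4 lay between the others. BCAT4, for which the family was listed, is 1 of these 3, and without it the count was 2 of 2.

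**Figure D3:**
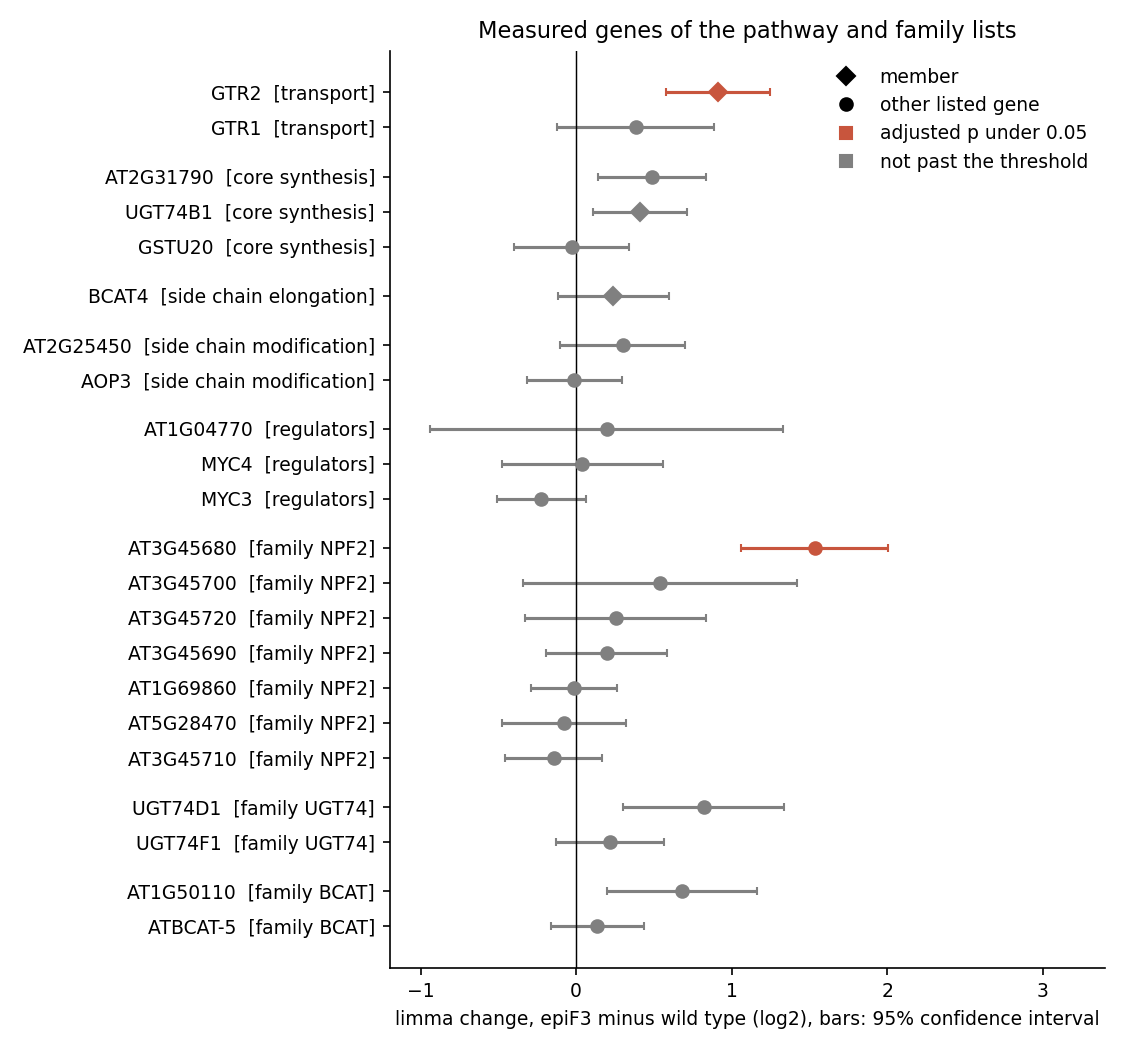
limma change, epiF3 minus wild type on the log2 scale (horizontal axis), with its 95% confidence interval, for the 22 measured loci of the pathway and family lists, where diamonds are the 3 member genes. Of these, GTR2 (0.91) and AT3G45680 (1.53) passed the threshold, and the other points are grey.

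The 3 genes lie on different chromosomes, GTR2 on chromosome 5, UGT74B1 on chromosome 1 and BCAT4 on chromosome 3 in TAIR10.1. Neighbours were counted in locus order among loci with a probe set that names 1 gene, so loci without one were skipped. Of the 12 measured genes up to 2 places to either side of a member, none passed the threshold in limma and 3 had an unadjusted p under 0.05, against 10.9% of all probe sets. These were AT5G62620 (-0.47) and AT5G62720 (-0.42) beside GTR2 and AT1G24140 (-2.13) beside UGT74B1, all with lower means in epiF3. The wild-type SD of AT1G24140 was 1.4.

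By likeness of pattern, the 5 probe sets with the highest Pearson correlation with each member over the 6 arrays were taken from 5962 that name 1 gene and lie at or above the median mean signal. The 6 arrays form 2 groups, so such a correlation carries the group difference and is given as a description. For GTR2 these were AT4G32190 (0.995), AT3G60980 (0.993), AT5G44000 (0.990), AT3G59910 (0.989) and AT5G43830 (0.979). All 5 had epiF3 arrays above wild-type arrays, against 9.75% of all probe sets. Because they were picked for likeness to GTR2, whose groups do not overlap, this separation is no separate finding. Their changes ran from 0.26 for AT5G44000 to 1.69 for AT3G60980, the 1 gene of these 5 past the threshold (adjusted p = 0.0065 in limma).

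For UGT74B1 they were 4CL8 (0.996), a member of the 4-coumarate-CoA ligase-like family, the tetraspanin gene TET2 (0.992), AT5G63940 (0.986), AT3G27420 (0.985) and IRX15-L (0.984), which acts in xylan synthesis. Their changes ran from 0.24 for TET2 to 1.6 for 4CL8, whose adjusted p of 0.0532 in limma just missed the threshold. For BCAT4 they were AT4G22490 (0.980), AT3G62560 (0.978), AT3G05940 (0.974), AT5G01780 (0.971) and AT1G54110 (0.969). All 5 overlapped between groups as BCAT4 did, which their choice by likeness to BCAT4 favours. A correlation above 0.95 was reached by 44 of the 5962 for GTR2, 30 for UGT74B1 and 12 for BCAT4.

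Under 12 other settings of the fit, the changes of GTR2, UGT74B1 and BCAT4 stayed positive. For most settings this was fixed in advance. The dim filter, trended moderation and the replicate block left the estimates as they were. With groups that did not overlap, leaving out an array could not turn the sign for GTR2 or UGT74B1. GTR2 passed in 6 of the 12, with adjusted p in limma from 0.0149 to 0.192. UGT74B1 passed in none of the 12, with adjusted p from 0.0741 to 0.724, and BCAT4 in none, with adjusted p from 0.286 to 0.906. The number with an unadjusted p under 0.05 among the 6 fits that left out an array was 4 for UGT74B1 and 0 for BCAT4.

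**Figure D4:**
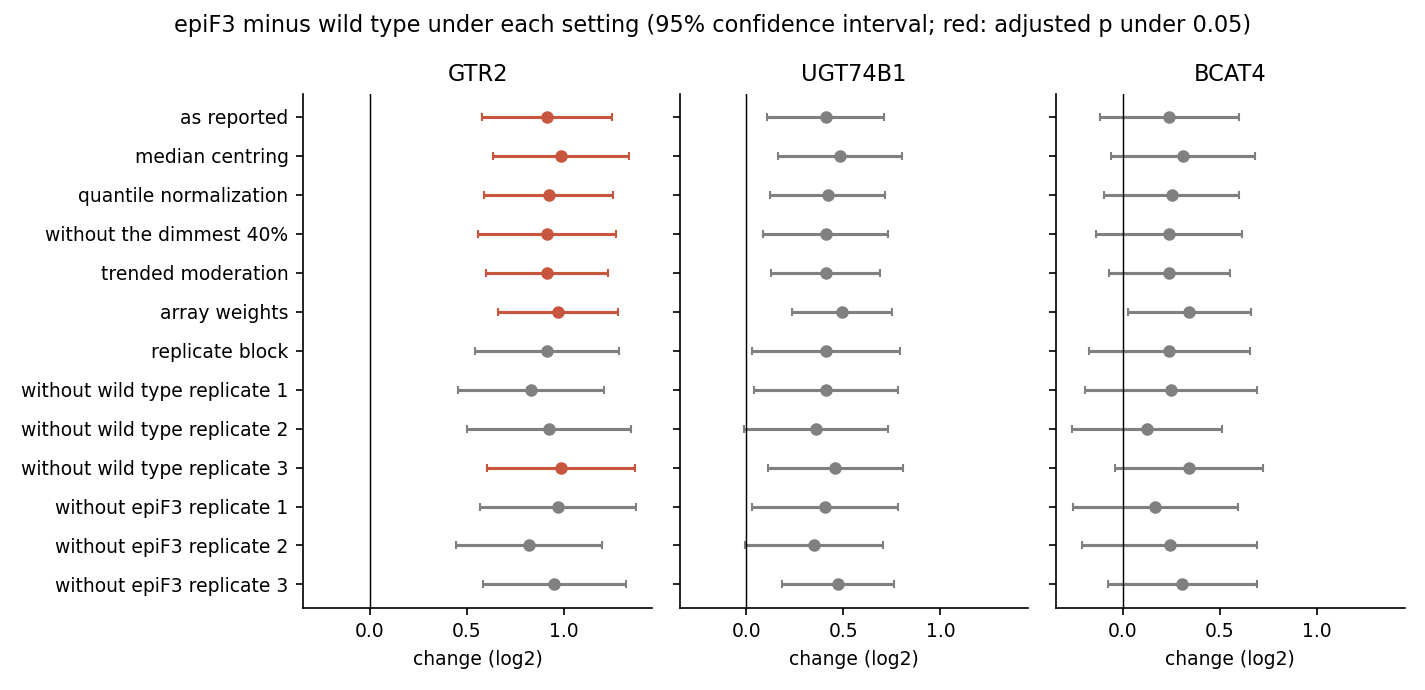
Change of GTR2, UGT74B1 and BCAT4, epiF3 minus wild type on the log2 scale (horizontal axes), with its 95% confidence interval, as reported and under the 12 other settings (rows), with red for an adjusted p under 0.05. GTR2 stays between 0.82 and 0.98 and is red in 6 of the 12, while UGT74B1 and BCAT4 are grey throughout.

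The arrays themselves differed. Medians of the probe sets tested were 4.25 to 4.32 in wild type and 4.08 to 4.28 in epiF3, and epiF3 replicate 3 had the lowest. Hybridization controls, foreign transcripts added as a reference, averaged 7.11 to 8.21 on wild-type arrays, 8.19 and 8.36 on epiF3 replicates 1 and 2, and 10.5 on epiF3 replicate 3. Without that array the changes were 0.95 for GTR2, 0.47 for UGT74B1 and 0.31 for BCAT4, each slightly larger than with it. Of the tissue markers, the leaf gene LHCB4.1, 1 of 7 leaf markers measured under a name, was at 11.7 to 12.2 on all arrays. Its epiF3 arrays lay below its wild-type arrays, as they did for 7.11% of all probe sets, by a gap of 0.022 log2 units. The change was -0.26 (adjusted p = 0.542 in limma). The root marker EXPA7 (2.19 to 2.63) and the anther marker AMS (2.16 to 2.35) were low, while the root marker PYK10 (3.78 to 4.51) lay around the array medians. FMA, a factor of guard and myrosin cells, was at 4.74 to 5.07 in wild type and 4.13 to 5.09 in epiF3. Phloem, epidermis and seed markers were not measured under a name. In whole aerial tissue a different share of cells of a type and a different amount of RNA per cell cannot be told apart, and the part of tissue makeup in the GTR2 difference was not tested.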

How the data were processed

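Per the labels, biotin-labelled RNA of 6 samples was hybridized to Affymetrix expression arrays. The authors deposited log2 signals, 1 for every probe set on an array. RMA and affy stand in the submitters' processing notes, with no versions, and how background was handled is not given in the sources used here. Of 22810 probe sets, 64 array controls were left out and 22746 tested. The annotation gives 1 gene for 13513, several for 503, and 8730 are unnamed here. RefSeq (TAIR10.1) matched 13436 of the 13513 and served for symbols, chromosomes and gene order.

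The comparison used lmFit and eBayes of limma 3.58.1 (R 4.3.3), with no block and no dim filter. The code was run on simulated independent normal noise with added changes, and no call here rests on that run. Pair differences used exact permutation in Python 3.11.15 (pandas 2.3.3, numpy 2.4.6), and figures matplotlib 3.10.9. Each listed gene measured had 1 probe set. All measured genes of the pathway and family lists are named, with the 5 genes whose pattern was most like that of each member. Alternatives were median centring, quantile normalization, leaving out the dimmest 40% of probe sets, array weights, trended moderation, a block for the replicate number, and leaving out each array. Members and lists were chosen with earlier results of these data known; the neighbour genes were added after seeing the data. Labels call the samples biological replicates but name no separate plants, so p-values measure the spread between these samples. The number of arrays limits the precision. No sequences are shown because the reference tables used here hold none.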

Additional observations from a re-analysis of the deposited data

Results flagged for a closer look

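The signal of hybridization controls, which serves no plant gene comparison, was 2.91 log2 units higher on epiF3 replicate 3 than the wild-type mean and above every wild-type array (exact permutation p = 0.2 between groups, n = 3 each, with 0.1 the smallest possible). Without that array the changes were 0.95 for GTR2, 0.47 for UGT74B1 and 0.31 for BCAT4, against 0.91, 0.41 and 0.24 with it.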

How the results depend on the processing

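The changes of GTR2, UGT74B1 and BCAT4 kept their sign under all 12 alternatives. For GTR2 and UGT74B1, whose groups did not overlap, leaving out an array could not turn it. Trended moderation, the dim filter and the replicate block left the estimates as they were. GTR2 lost its call with the replicate block (0.91, adjusted p = 0.0964 in limma) and without 5 of the 6 single arrays, with changes of 0.82 to 0.98 over the 6. In those fits the number of listed pathway loci past the threshold was 0 in place of 1, although the unadjusted p of GTR2 in limma was under 0.05 with any of the 6 left out. Fewer arrays lower the precision, and other causes were not tested. Deviations from the group mean were not alike on arrays of the same number (correlations of -0.077, -0.042 and -0.045 across probe sets), so no pairing was shown. Over all probe sets, 61 were higher and 75 lower, 208 and 241 with array weights, 26 and 48 with the replicate block, and 11 to 115 and 22 to 287 with 1 array left out. The pathway median was 0.18 to 0.41 with 1 array left out.

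Among the other 19 listed genes, 6 of 220 alternative values lost a call, all for AT3G45680 (among them the replicate block, 1.53, adjusted p = 0.0809 in limma), and 20 changed sign, all for genes not past the threshold. After median centring, which subtracts each array's median, GSTU20 was at 0.0427, AOP3 at 0.0578 and AT1G69860 at 0.0573. With array weights GSTU20 was at 0.0376, AOP3 at 0.025, AT1G04770 at -0.0167, AT5G28470 at 0.0449 and AT1G69860 at 0.0362. With 1 array left out the values ran from -0.143 to 0.118 for GSTU20, from -0.0753 to 0.077 for AOP3, from -0.18 to 0.185 for MYC4, from -0.47 to 0.567 for AT1G04770, from -0.0586 to 0.415 for AT3G45720, from -0.247 to 0.048 for AT5G28470 and from -0.0548 to 0.0285 for AT1G69860. Low signals near the floor limit what can be said of AOP3, AT3G45720, AT5G28470 and AT1G69860.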
